A study of Mus musculus with 24 samples.

Results

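Wdfy1, Nnt, Ide and Entpd4 are 4 of the 54446 gene identifiers counted in each library. They were listed as genes known to differ between the C57BL/6J and C57BL/6N substrains, and were matched by symbol to Ensembl identifiers. The list was selected on earlier results of these same counts, in which WT and cKO libraries differed. The genotype differences of the 4 genes, in Input and in IP, are therefore given as descriptions without a test. Of the 4 genes, 3 passed the filter on low counts in the Inputs (10 or more counts in 3 or more libraries) and 4 passed it in the IP libraries. Entpd4 was the gene left out of the Input tests.

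The libraries came from CD11b+ myeloid cells sorted from MC38 tumors, a C57BL/6 colon carcinoma line, grown in mice described as C57BL/6J in background for both genotypes (the growth protocol also names blood, but every library is labelled as tumor). Both genotypes carried Ythdf2 fl/fl. WT had no Cre, and cKO was Lyz-Cre+; Ythdf2 fl/fl, in which Cre is expressed from the Lyz2 locus of macrophages, monocytes and granulocytes and removes Ythdf2, the gene of an m6A reader protein, in those cells. Tumors were sham treated (Ctrl) or given 20 Gy in 1 dose and collected 3 days later (IR). Input libraries hold mRNA fragments, and IP libraries hold the fragments that an anti-m6A antibody pulled down (m6A is N6-methyladenosine), which gives 8 groups of 3 replicates. The mice were young adults of both sexes, the cells of several mice were pooled for each replicate, and the methods call replicates of cells technical. P-values here measure the spread between such libraries. Whether WT and cKO mice were littermates was not given in the sources used here.

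C57BL/6 mice are not 1 strain. Colonies kept apart for decades have fixed different mutations, and a knockout made or crossed on one substrain and compared with controls of another differs from them at those loci as well as at the targeted gene. WDFY1 is a protein with WD40 repeats and a FYVE domain that binds phosphatidylinositol 3-phosphate on early endosomes and links TLR3 and TLR4 to the adaptor TRIF. NNT is the transhydrogenase of the inner mitochondrial membrane that makes NADPH, and C57BL/6J mice carry a deletion of several of its exons. IDE is a zinc protease that degrades insulin and other small peptides, and a duplicated segment with Ide and Fgfbp3 is known among C57BL/6J mice. ENTPD4 is a nucleoside diphosphatase of the Golgi and lysosomes, and the reference genome, which is that of C57BL/6J, holds a second copy of its gene.

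Libraries held from 65180075 to 86421888 gene counts. The 10 myeloid markers were all present in every group and summed to 4420 to 6420 plain CPM in the Inputs. Markers of T and NK cells, B cells and tumor epithelium each summed to at most 1.45 plain CPM in any Input, and those of stroma and endothelium to at most 3.09. Lyz2, the gene that carries Cre, had 20590 ± 294 CPM (counts relative to the library size, with TMM scaling; sums and intervals given as plain CPM have none) in WT Ctrl Inputs and 299.8 ± 3.95 in cKO Ctrl Inputs (SD, n = 3 each). In IR Inputs it had 20740 ± 703 in WT and 409.3 ± 5.90 in cKO. Ythdf2, the targeted gene, was not lower in cKO Inputs, with 177.9 ± 6.05 CPM against 96.8 ± 1.23 of WT in Ctrl, and 222.6 ± 7.25 against 105 ± 1.51 in IR. These are counts over the whole gene, in which deleted and retained exons cannot be told apart. In the IP libraries, Lyz2 had 17290 ± 439 CPM in WT Ctrl and 95.1 ± 2.74 in cKO Ctrl, whereas the IR libraries labelled WT had 98.5 ± 1.45 and the IR libraries labelled cKO had 21130 ± 138. The irradiated IP libraries thus went against their genotype labels, and groups of these 6 libraries are given below by label only.

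Among the 4 genes, Wdfy1 was the one that separated the genotypes widely. Wdfy1 (ENSMUSG00000073643.11) lies on the minus strand at chr1:79702262-79776143 (mm10, GRCm38) and has 6488 exon bases. WT Ctrl Inputs held 1870, 2096 and 1856 Wdfy1 counts, and WT IR Inputs held 1710, 1947 and 1876. The cKO Ctrl Inputs held 356, 503 and 457 counts, and the cKO IR Inputs held 377, 298 and 323. All 6 WT Inputs were far above all 6 cKO Inputs, and no library stood between them.

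In normalized levels, the WT Inputs had 26.1 ± 1.28 CPM of Wdfy1 in Ctrl and 27.8 ± 1.36 in IR, and the cKO Inputs had 5.65 ± 0.596 and 4.74 ± 0.512 (SD, n = 3 each). The order from high to low was WT IR, WT Ctrl, cKO Ctrl and cKO IR, and within each genotype the ranges of Ctrl and IR libraries overlapped. The log2 difference of cKO from WT was -2.20 (SE 0.083, 4.6-fold lower) in Ctrl and -2.55 (SE 0.086, 5.86-fold lower) in IR Inputs. Over all 16090 genes tested, the median absolute log2 difference was 0.129 in Ctrl and 0.289 in IR, and 115 and 122 genes, Wdfy1 included, were at least as far apart as Wdfy1. In bulk samples, fewer cells that express a gene and less RNA of it per cell cannot be told apart. Of the 10 myeloid markers, 7 were called between genotypes in Ctrl Inputs, 5 higher and 2 lower in cKO, and 9 in IR Inputs, 5 higher and 4 lower. The lower ones in Ctrl were the neutrophil and monocyte genes S100a8 (-1.41, SE 0.076) and S100a9 (-1.45, SE 0.037), which differed by -0.20 (SE 0.078) and -0.32 (SE 0.038) in IR, where the Wdfy1 difference was -2.55. Together the 10 markers summed to 6320 to 6410 plain CPM in WT Ctrl and 6370 to 6420 in cKO Ctrl (4420 to 4490 and 5170 to 5320 in IR). Their part in the Wdfy1 difference was not tested.

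The other 3 genes did not follow this split. Ide libraries of the 2 genotypes did not overlap in Ctrl Inputs either, but by a log2 difference of 0.03 (SE 0.046), with cKO higher, and in IR Inputs the difference was -0.22 (SE 0.047), with cKO lower. Nnt differed by 0.09 (SE 0.63) and -0.43 (SE 0.64) with overlapping libraries. Thus 2 of the 3 genes that passed the filter had genotypes that did not overlap in Ctrl Inputs, beside 36.3% of all genes tested, and 2 of 3 in IR Inputs, beside 52.1%. These comparisons chose the genes, and nothing is read from the counts.

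**Figure D1:**
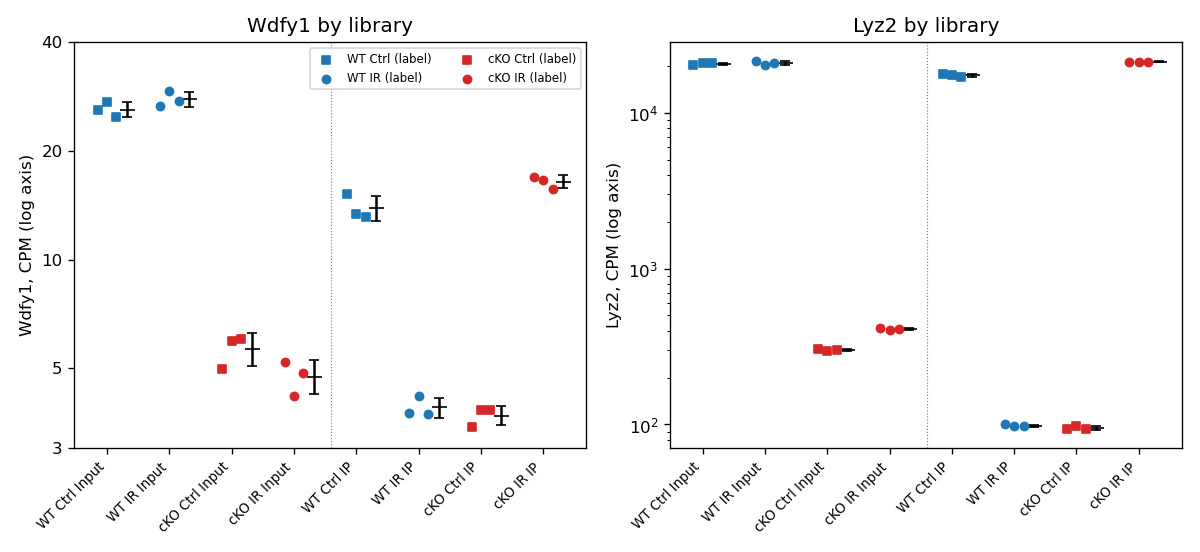
Wdfy1 (left) and Lyz2 (right) in each library, in CPM on log axes, with groups by label along the horizontal axis, Inputs left and IP libraries right of the dotted line, and the mean ± SD of 3 replicates as a black bar. In the Inputs and the Ctrl IP libraries both genes are high in WT and low in cKO, while the libraries labelled WT IR IP lie near cKO Ctrl IP (Wdfy1 3.89 and 3.70 CPM) and those labelled cKO IR IP lie near WT Ctrl IP (16.4 and 13.9 CPM).

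In the IP libraries, the position of Wdfy1 changed with treatment by label. WT Ctrl IP libraries held 1076, 971 and 970 counts (13.9 ± 1.12 CPM) and cKO Ctrl IP libraries 250, 290 and 281 (3.70 ± 0.226 CPM), in the same order as the Inputs. Among IR libraries, those labelled WT held 273, 282 and 274 counts (3.89 ± 0.251 CPM) and those labelled cKO held 1443, 1285 and 1195 (16.4 ± 0.671 CPM). The 12 libraries fell into a high and a low set of 6 with no value between them, and the sets were the ones that Lyz2 formed.

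The log2 difference of cKO from WT for Wdfy1 was -1.91 (SE 0.089, 3.76-fold lower) in Ctrl IP and 2.08 (SE 0.088, 4.23-fold higher) in IR IP by label. For comparison, 164 genes were called and at least 2-fold apart the same way in both Input genotype comparisons, 116 of them lower in cKO. Of these genes, 108 were tested in the IP libraries, and for 20, Wdfy1 and Lyz2 among them, the Ctrl IP libraries did not overlap and had the order of the Inputs. For 18 of those 20 (90%) the IR IP libraries did not overlap and had the opposite order by label, and for 0 of them the same order. Among the 4 genes, genotypes did not overlap for 2 of 4 in Ctrl IP (Wdfy1 and Nnt, both lower in cKO), beside 42.8% of all genes, and for 3 of 4 in IR IP by label (Wdfy1 and Entpd4 higher in cKO, Ide lower), beside 50.8%.

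Enrichment by the m6A antibody was not used to choose the genes and was tested in 1 edgeR fit of the 24 libraries. In the Ctrl libraries, Wdfy1 had lower levels in IP than in Input in both genotypes. The log2 difference of IP from Input was -1.12 (SE 0.077, edgeR adjusted p = 6.9e-15) in WT Ctrl and -0.84 (SE 0.094, edgeR adjusted p = 1.1e-09) in cKO Ctrl. Among irradiated libraries by label, it was -3.08 (SE 0.088) in WT IR and 1.59 (SE 0.086) in cKO IR. The IP libraries of these groups went against their label in Lyz2, while their Inputs did not. Differences of IP from Input by label in IR thus also hold the genotype difference, for every gene here. Those of single genes are therefore given without a test. An average over both irradiated genotypes is the same whichever IP group is which. For Wdfy1 it was -0.75 (SE 0.061, edgeR adjusted p = 5.7e-13), beside -1.12 and -0.84 in Ctrl. This average was added after the data were seen.

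Ide was lower in IP than in Input in all 4 groups. The log2 differences were -0.66 (WT) and -0.65 (cKO) in Ctrl (SE 0.042 each, edgeR adjusted p = 8.9e-16 in both). In IR by label they were -0.41 (WT) and -0.29 (cKO) (SE 0.042 each), given without a test. For Nnt the test was passed in cKO Ctrl, at -2.28 (SE 0.90, edgeR adjusted p = 0.023), and not in WT Ctrl, at 0.30 (SE 0.76, edgeR adjusted p = 0.73). The call in cKO Ctrl was lost when any of 3 libraries was left out (cKO Ctrl Input replicate 3, edgeR adjusted p = 0.081, IP replicate 1, 0.08, and IP replicate 2, 0.061). Averaged over both irradiated genotypes, the difference was -1.62 for Nnt (SE 0.60, edgeR adjusted p = 0.014), -0.35 for Ide (SE 0.030, edgeR adjusted p = 8.1e-13) and 0.85 for Entpd4 (SE 0.47, edgeR adjusted p = 0.096). For Entpd4 the difference in cKO IR by label was 1.55 (SE 0.65), on 14 Input and 54 IP counts, and is given without a test. Without IP replicate 3 of that group, the library with 28 of the 54 counts, the difference was 1.04. The counts below hold Entpd4 as called higher in that group. That call was lost without this library or without any of the 3 Input libraries of the group.

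In WT Ctrl, 2 of the 4 genes were called lower and 0 higher in IP, beside 37.5% and 38.1% of the 17373 genes tested. In cKO Ctrl, 3 were lower and 0 higher, beside 36% and 37.8%. In WT IR by label, 2 were lower and 0 higher, beside 36.5% and 37%. In cKO IR by label, 1 was lower and 2 were higher (Wdfy1 and Entpd4), beside 36.9% for each direction. None of the genes counted 0 times as higher had an unadjusted p under 0.05 in that direction, since all 2, 3 and 2 genes with such a p in those groups were the ones called lower. In the 2 IR groups by label, IP and Input libraries had opposite Lyz2 levels, and nothing on enrichment is read from their counts.

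The deposited peak lists held 13470 to 17608 m6A peaks per IP library. Wdfy1 had peaks in 3 of the 3 libraries labelled cKO IR and in 0 of the other 9, the 6 Ctrl IP libraries among them. All 4 Wdfy1 peaks lay in the 3′ UTR, and the authors' fold over control at their summits was 3.95 to 4.55. In library 1 the peak was at chr1:79703666-79704102, in library 3 at chr1:79703648-79703919, and in library 2 at chr1:79703770-79704030 with a second one at chr1:79703133-79703323. The WT Ctrl IP libraries, with no Wdfy1 peak, had nearly as high a Wdfy1 level in IP (13.9 against 16.4 CPM), but 26.1 CPM in the Inputs of the same label against 4.74 CPM. The pairing of Inputs and IP libraries in the peak calls was not given in the sources used here, and its part in these calls was not tested.

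m6A is laid down within short consensus motifs, of which GGAC is a frequent core. The stretches that hold it under the Wdfy1 peaks are shown because they lie under the only peaks that any library gave for this gene. They were read from the GRCm38 reference on the minus strand, 5′ to 3′, with GGAC in capitals.
Wdfy1 3′ UTR, chr1:79703762-79703781: agtgctttGGACaagagagt
Wdfy1 3′ UTR, chr1:79704058-79704077: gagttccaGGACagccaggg
Wdfy1 3′ UTR, chr1:79703243-79703262: gactgaagGGACaataaggc
The first lies 39 bases from the median summit of the region seen in 3 libraries, the second 257 bases from it, and the last 15 bases from the summit seen in library 2 alone. In windows of 101 bases around the summits, 3 of the 4 Wdfy1 peaks held GGAC in the sense of the transcript and 0 of 4 on the opposite strand. Among all peaks of a library, 33.4 to 35.7% held it in the sense of the transcript and 26.7 to 29.7% on the opposite strand. A match in these letters is a description and no site.

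Ide had 1 peak in each of the 3 libraries labelled WT IR, with the authors' fold at 2.99, 2.23 and 2.96, and 0 in the other 9. The 3 peaks overlapped within chr19:37270730-37270920, at the edge of a coding exon, with 2 summits in the exon and 1 in an intron. None of their 3 summit windows held GGAC. The libraries with the Ide peak were also those with the highest Ide level in IP, 49.3 ± 0.0847 CPM, against 44.9 ± 0.0825 in the IR libraries labelled cKO, 42.8 ± 1.23 in cKO Ctrl and 41.6 ± 0.975 in WT Ctrl. Nnt had 1 peak, in a coding exon at chr13:119370036-119370199 in WT IR library 2 by label, with a fold of 2.58 and no GGAC in its window.

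Irradiation did not choose the 4 genes and was tested in the Inputs. In WT, 0 of the 3 genes tested were called by edgeR, 0 had an unadjusted p under 0.05, and 0 were called by DESeq2, beside 31.7% of all genes called by edgeR. The log2 difference of IR from Ctrl was 0.09 for Wdfy1 (SE 0.075, edgeR adjusted p = 0.39), -0.03 for Ide (SE 0.047, edgeR adjusted p = 0.72) and 0.35 for Nnt (SE 0.63, edgeR adjusted p = 0.73). In cKO, 2 of 3 were called, both lower after irradiation, beside 45.6% of all genes. Ide fell by 0.27 (SE 0.047, edgeR adjusted p = 6.1e-05), and its cKO IR libraries lay below its cKO Ctrl libraries. Wdfy1 fell by 0.26 (SE 0.093, edgeR adjusted p = 0.029), with overlapping libraries. The summed myeloid markers went from 6370 to 6420 plain CPM in cKO Ctrl to 5170 to 5320 in cKO IR, and from 6320 to 6410 in WT Ctrl to 4420 to 4490 in WT IR. The mitochondrial share of the Input counts went from 5.45 ± 0.095% to 3.54 ± 0.19% with irradiation in cKO and from 4.69 ± 0.13% to 6.69 ± 0.56% in WT (SD, n = 3 each). The part of either in these changes was not tested.

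The call of Ide in cKO held in every alternative run, with edgeR or DESeq2 adjusted p from 1.1e-07 to 0.00067. The call of Wdfy1 did not. Without cKO IR Input replicate 2, the library with the fewest Wdfy1 counts, the effect on Wdfy1 was -0.17 (edgeR adjusted p = 0.17). It was also lost without cKO Ctrl replicate 2 or 3 (edgeR adjusted p = 0.11 and 0.12) and in a fit of the 6 libraries alone (0.058). The irradiation effect of cKO with that of WT subtracted, the interaction, is also the difference of the genotype differences that chose the genes, and is given as a description. It was -0.35 for Wdfy1 (SE 0.12), -0.25 for Ide (SE 0.066) and -0.51 for Nnt (SE 0.90), and 30.2% of all genes were called in it.

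**Figure D2:**
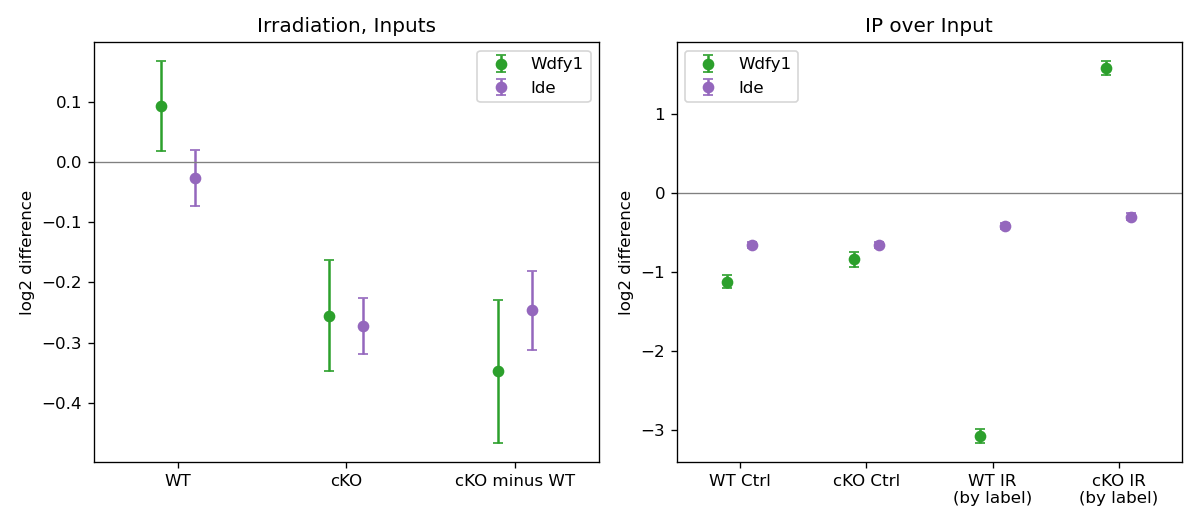
Log2 differences of Wdfy1 and Ide from edgeR with their SE as bars, for irradiation in the Inputs (left: in WT, in cKO, and the cKO minus the WT effect) and for IP over Input in each group by label (right). Both genes fall after irradiation in cKO Inputs, and IP over Input of Ide stays between -0.66 and -0.29 while that of Wdfy1 reaches -3.08 and 1.59 in the groups labelled IR.

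Ide (ENSMUSG00000056999.14) lies on the minus strand at chr19:37268743-37337852 with 7506 exon bases. It had the most counts per exon length of the 4 genes, with 7.54 ± 0.072 CPM per kb in WT Ctrl Inputs against 4.02 ± 0.197 for Wdfy1, 0.0184 ± 0.0043 for Nnt and 0.0128 ± 0.0053 for Entpd4. The full exon length was used, although reads of Nnt and Entpd4 that fit a second identifier may not be counted. The values of these genes are therefore no ranking of expression. WT Inputs held 4032, 4347 and 4262 counts in Ctrl and 3274, 3900 and 3894 in IR, and cKO Inputs held 4096, 4944 and 4346 in Ctrl and 3523, 3383 and 3143 in IR. In CPM the levels were 57.7 ± 0.823 in cKO Ctrl, 56.6 ± 0.538 in WT Ctrl, 55.6 ± 4.04 in WT IR and 47.7 ± 0.671 in cKO IR, and the range of WT IR held all libraries of both Ctrl groups. The group set apart was cKO IR, whose highest library (48.5 CPM) lay below the lowest of WT IR (51.0). Fgfbp3, a secreted binder of fibroblast growth factors that shares the duplicated segment and was singled out after its values were seen, had 13 to 76 counts in the Inputs and differed between genotypes by 0.02 in Ctrl (SE 0.42, edgeR adjusted p = 0.98), and the IR value was -0.32 (SE 0.39, edgeR adjusted p = 0.54).

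Nnt (ENSMUSG00000025453.18) lies on the minus strand at chr13:119335448-119408997. Its 4 Input groups overlapped, with WT counts of 7, 12 and 10 in Ctrl and 8, 10 and 15 in IR, and cKO counts of 6, 11 and 15 in Ctrl and 8, 16 and 2 in IR. Summed over a group these are 26 to 33 counts, or 0.126 to 0.162 plain CPM, and the exact 95% Poisson intervals of the groups run from 0.082 to 0.228 plain CPM and overlap (they cover counting error only). Differences within these intervals were not detectable at these counts. Of its 7037 exon bases, 47.4% are shared on the same strand with a second Nnt identifier (ENSMUSG00000116207.1), which was at 0 in all 24 libraries, and reads in shared bases count for neither gene when they are set aside as ambiguous. Reads from exons that C57BL/6J lacks cannot be placed on a C57BL/6J reference, so these counts do not show which form of the gene the mice carried.

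In IP, Nnt held 19, 12 and 9 counts in WT Ctrl and 1, 2 and 4 in cKO Ctrl, with no overlap. The IR libraries labelled WT held 2, 11 and 2 counts, and the IR libraries labelled cKO held 0, 2 and 7. The log2 difference of cKO from WT was -2.49 (SE 0.93) in Ctrl IP and -0.87 (SE 0.97) in IR IP by label. Ranges of the 3 groups other than WT Ctrl overlapped.

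Entpd4 (ENSMUSG00000095463.8) lies on the plus strand at chr14:69337174-69367270, and Entpd4b (ENSMUSG00000022066.16), its copy, at chr14:69555424-69585520. The copies were identical at all 30097 bases in GRCm38, so a read from either fits both. In the Inputs, Entpd4 counts of WT were 9, 10 and 4 in Ctrl and 6, 4 and 7 in IR, and those of cKO were 3, 5 and 8 in Ctrl and 5, 4 and 5 in IR. These are 14 to 23 counts per group, with intervals from 0.037 to 0.154 plain CPM that overlap. Entpd4b held 13 to 88 counts per Input, and its log2 difference of cKO from WT was 0.49 in Ctrl (SE 0.53, edgeR adjusted p = 0.62), and the IR value was 0.42 (SE 0.54, edgeR adjusted p = 0.56). Reads that fit both copies cannot be assigned to either, and neither count can be read as the expression or the copy number of the gene.

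In IP, Entpd4 held 9, 4 and 12 counts in WT Ctrl, 6, 13 and 12 in cKO Ctrl, and 9, 5 and 10 (labelled WT) and 14, 12 and 28 (labelled cKO) in the IR libraries. Entpd4b held 39 to 81. Peaks lay on Entpd4 in 4 of the 12 IP libraries and on Entpd4b in 8. In all 8, a summit fell in 1 coding exon between chr14:69580026 and chr14:69580057, and the 2 coding peaks on Entpd4 had their summits at 69361790 and 69361808, where the summits on Entpd4b, carried over to Entpd4, lie at 69361776 to 69361807.

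**Figure D3:**
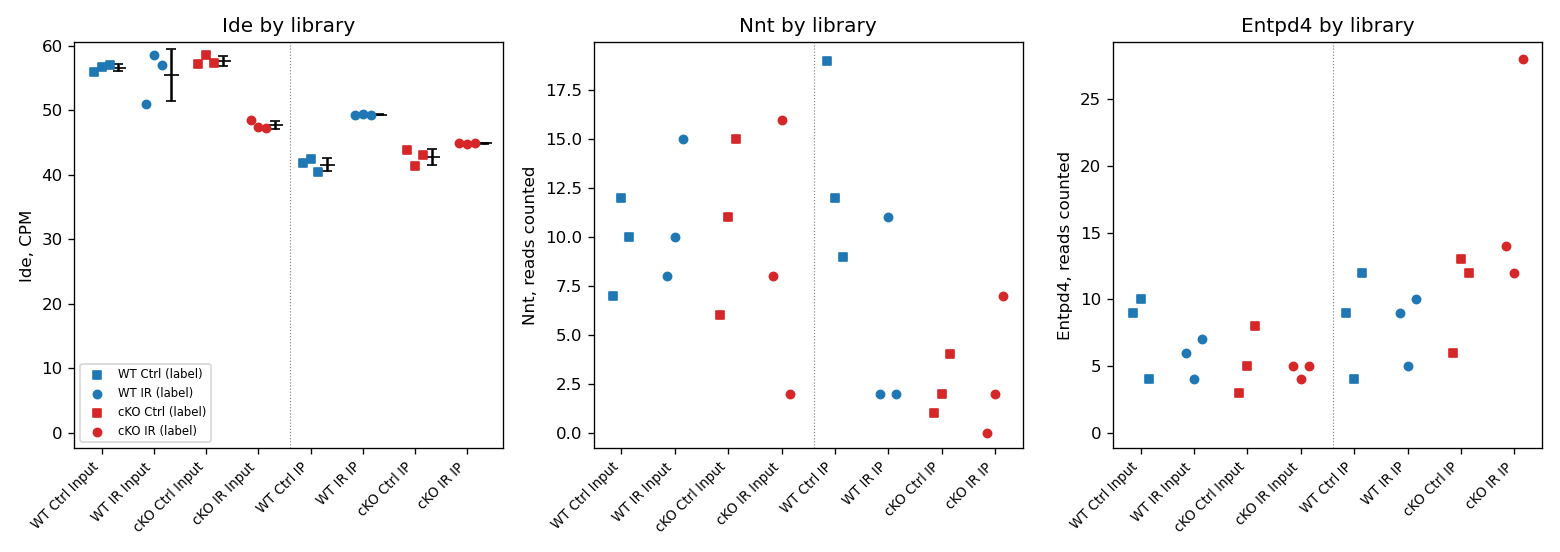
Ide in CPM (left, with the mean ± SD of 3 replicates as a black bar) and reads counted for Nnt (middle) and Entpd4 (right) in each library, with groups by label and Inputs left of the dotted line. Ide is lowest among the Inputs in cKO IR (47.7 CPM), while Nnt stays at or under 19 reads and Entpd4 at or under 28 in every library.

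Genes near the 4 loci were examined to see how far from each gene a genotype difference was seen. Of the 64 tested genes that start within 1 Mb of one of them, 11 (17.2%) were called between cKO and WT in Ctrl Inputs, 5 higher and 6 lower in cKO, beside 15.7% of all genes. In IR Inputs 25 (39.1%) were called, 9 higher and 16 lower, beside 47.7%. With 1 library left out the count in Ctrl was 6 to 9 (7 without WT Ctrl replicate 1, WT Ctrl replicate 2 or cKO Ctrl replicate 1, and 6 without cKO Ctrl replicate 3). It was 12 with DESeq2 and 15 in a fit of only the 6 libraries compared.

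Around Wdfy1, 2 of 11 genes (18.2%) were called in Ctrl and 9 of 11 (81.8%) in IR, beside 15.7% and 47.7% of all genes. Those called in IR were 2 higher and 7 lower in cKO. The genes called in Ctrl were called in IR as well and were lower in cKO each time. Distances are counted along the direction of transcription of Wdfy1. Gm38062, a gene model at -955 kb, differed by -2.19 in Ctrl (SE 0.45, edgeR adjusted p = 0.0019), and the IR value was -2.21 (SE 0.43, edgeR adjusted p = 0.00025). Dock10, an activator of small GTPases at -982 kb, differed by -0.12 (SE 0.031, edgeR adjusted p = 0.014) and -0.38 (SE 0.031, edgeR adjusted p = 3.4e-09). Mrpl44, a mitochondrial ribosome protein whose start is 0.125 kb from that of Wdfy1 and which was singled out after its values were seen, differed by 0.06 in Ctrl (SE 0.062, edgeR adjusted p = 0.6), and the IR value was 0.53 (SE 0.063, edgeR adjusted p = 6.2e-07), on the side opposite to Wdfy1.

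Around Nnt, 3 of 16 genes (18.8%) were called in Ctrl and 5 (31.2%) in IR, beside the same 15.7% and 47.7% of all genes. The gene models Gm36161 and Gm21188 were higher in cKO both times, by 0.45 (SE 0.055) and 0.37 (SE 0.038) in Ctrl and by 0.75 (SE 0.056) and 0.51 (SE 0.038) in IR (largest edgeR adjusted p = 5.8e-06). Around Ide, 5 of 19 (26.3%) were called in Ctrl and 7 (36.8%) in IR. Of these, 1 was called both times, the gene model Gm9042 at 933 kb, at -1.75 (SE 0.29, edgeR adjusted p = 0.00018) and -1.39 (SE 0.25, edgeR adjusted p = 0.00012). Around Entpd4, 1 of 18 (5.56%) was called in Ctrl and 4 (22.2%) in IR, and no gene was called the same way in both.

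**Figure D4:**
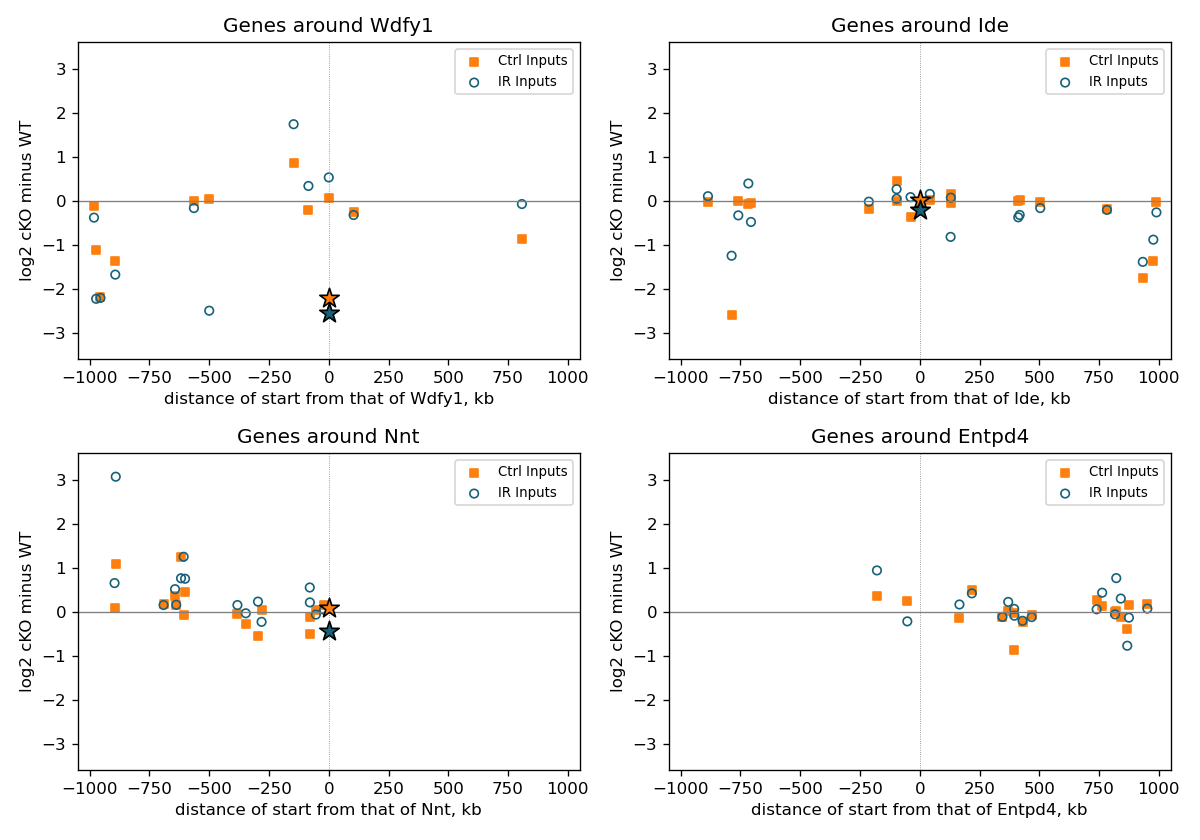
Log2 difference of cKO from WT in Ctrl Inputs (filled squares) and IR Inputs (open circles) for tested genes around each of the 4 genes, against the distance of their starts in kb, counted along the direction of transcription of the named gene, whose own values are stars at 0 where it was tested. Wdfy1 lies at -2.20 and -2.55 while the gene that starts next to it, Mrpl44, lies at 0.06 and 0.53.

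A further 12 genes known to differ in sequence or copy number between C57BL/6 substrains or suppliers were set beside the 4. Of these, 6 passed the filter, and 2 of the 6 were called between genotypes in Ctrl Inputs and 2 in IR Inputs, each time lower in cKO, beside 15.7% and 47.7% of all genes called in either direction. The median log2 difference of the 6 was -0.545 in Ctrl and -0.495 in IR, beside -0.00109 and -0.00281 over all genes tested. Mmrn1 held 1 to 40 counts per Input and Fgfbp3 13 to 76, so the medians of the 6 rest in part on genes with few counts. Cyfip2, a regulator of actin assembly that carries a missense change in C57BL/6N, was called in both. It held 15530, 15845 and 16115 counts in WT Ctrl against 11678, 13389 and 11931 in cKO Ctrl Inputs, a log2 difference of -0.41 (SE 0.035, edgeR adjusted p = 4.4e-08), and differed by -0.39 in IR (SE 0.036, edgeR adjusted p = 1.6e-08). Wdfy1 was lower in the same 2 comparisons, by a larger log2 difference. In Ctrl IP the order of Cyfip2 was the other way, with 17.9 ± 2.39 CPM in WT and 24.7 ± 2.03 in cKO, while Wdfy1 had 13.9 and 3.70.

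Nlrp12, an inhibitory receptor of myeloid cells that also carries a missense change among the substrains, held 163, 174 and 204 counts in WT Ctrl against 56, 85 and 61 in cKO Ctrl, a log2 difference of -1.48 (SE 0.33, edgeR adjusted p = 0.0038). In IR it differed by -0.60 (SE 0.41, edgeR adjusted p = 0.25), and with irradiation it fell by 2.17 on the log2 scale in WT (SE 0.36, edgeR adjusted p = 6.8e-05). Dock2, an activator of Rac in leukocytes of which some C57BL/6N colonies carry a duplicated part, differed by 0.06 in Ctrl (SE 0.028, edgeR adjusted p = 0.16), and the IR value was -0.26 (SE 0.028, edgeR adjusted p = 1.7e-07). Fgfbp3 and Mmrn1 were tested and not called, and Crb1, Gabra2, Zp2, Adamts12, Plk5 and Pdzk1 had at most 9 counts in any Input.

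The pathways of the 4 genes were followed in the same comparisons. Of 12 genes of the TLR3 and TLR4 pathway in which WDFY1 acts with TRIF, 7 were called in Ctrl Inputs, all higher in cKO, beside 15.7% of all genes called in either direction, with a median log2 difference of 0.136 beside -0.00109 over all genes. Among them were Ikbke (0.52, SE 0.032, edgeR adjusted p = 4.2e-10), a kinase of interferon induction, and Cd14 (0.53, SE 0.036, edgeR adjusted p = 1.3e-09), the coreceptor for lipopolysaccharide. Cd14 is also among the 10 myeloid markers, of which 7 were called in Ctrl Inputs, 5 higher and 2 lower in cKO. The part of cell composition in the calls of this list was not tested. In IR Inputs 9 were called, 5 higher and 4 lower, beside 47.7% of all genes. A list around FYVE domain proteins and endosomes had 9 tested genes, among them Wdfy2, Wdfy3 and Wdfy4, which are named like Wdfy1. Of these 9, 2 were called in Ctrl, Wdfy2 at 0.13 (SE 0.040, edgeR adjusted p = 0.032) and Wdfy4 at -0.13 (SE 0.042, edgeR adjusted p = 0.038). These 2 of 9 stand beside 15.7% of all genes. In IR 8 of 9 were called, 7 of them lower in cKO, beside 47.7% of all genes, with Wdfy3 at -0.48 (SE 0.032, edgeR adjusted p = 2.4e-10). Wdfy4 was at -0.58 (SE 0.042, edgeR adjusted p = 7.9e-10).

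Of 15 tested genes of mitochondrial NADPH supply and thiol defence, the setting in which NNT works, 4 were called in Ctrl (3 higher, 1 lower) and 9 in IR (all higher in cKO), beside 15.7% and 47.7% of all genes. Prdx5, a peroxiredoxin, differed by 0.19 (SE 0.027, edgeR adjusted p = 3.8e-05) and 0.72 (SE 0.027, edgeR adjusted p = 7.7e-14). Of the 5 tested relatives of IDE among the M16 metalloproteases, 0 were called by edgeR between genotypes in Ctrl Inputs (0 with an unadjusted p under 0.05, 0 called by DESeq2), beside 15.7% of all genes. In IR Inputs 3 were called, 2 higher and 1 lower in cKO, beside 47.7%. For irradiation in cKO, where Ide was called too, 5 of 5 were called, beside 45.6% of all genes: 2 rose, among them Uqcrc2 (0.38, SE 0.044, edgeR adjusted p = 5.5e-07), a subunit of respiratory complex III, and 3 fell. Of the 5 tested nucleoside diphosphatases related to ENTPD4, 1 was called in Ctrl, Entpd5 at -0.32 (SE 0.079, edgeR adjusted p = 0.0076), beside 15.7% of all genes, and 2 in IR, beside 47.7%, both lower in cKO, Entpd7 at -0.32 and Entpd1 (-0.35, SE 0.045, edgeR adjusted p = 1.6e-06), the ectoenzyme CD39.

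The genes whose log2 CPM was most like that of Wdfy1 over the 12 Inputs were Lyz2 (Pearson r = 0.988), F5 (0.986), Ighg2b (0.986), Gpr137b (0.985) and Tcp11l1 (0.979). The 12 points share a split into 6 WT and 6 cKO libraries, so that r mainly reads that split, and the values are a description. Over the 12 IP libraries, Lyz2 again went with Wdfy1 (r = 0.995), whereas r was 0.127 for F5, 0.44 for Ighg2b, -0.757 for Gpr137b and 0.435 for Tcp11l1. Lyz2 lies on chromosome 10, F5 on chromosome 1 as Wdfy1 does, and the others on chromosomes 12, 13 and 2. Genes most like Ide were Nfatc3 (r = 0.982 over the Inputs and 0.904 over the IP libraries), Med14 (0.976 and 0.28), Hnrnph2 (0.973 and 0.217), Myadm (0.972 and 0.517) and Fgd6 (0.97 and 0.829). All 5 had, as Ide, a log2 genotype difference of at most 0.0531 in Ctrl and a lower level in cKO than in WT in IR Inputs.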

How the data were processed

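MeRIP-seq was available for 24 libraries, grouped by their labels alone. Upstream, per the methods and processing notes, the authors used Trimmomatic 0.39 for trimming, HISAT with mm10 and GENCODE vM19 for stranded alignment, HTSeq for counting, and MACS2 for peaks of each IP library, run on the strands separately. The deposited gene values are raw counts. The deposited peak lists give a fold at the summit as a ratio over control, −log10 p and q values and a score, and these were used only to describe peaks. HTSeq summary lines were left out of library sizes (2.86 to 6.55% of reads hit no feature, 2.19 to 2.58% were ambiguous and 3.34 to 3.83% were not uniquely placed). Of 54446 identifiers, 54409 matched GENCODE vM21 of GRCm38, which gave symbols, positions and exons.

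Counts were tested with edgeR 4.0.16 in R 4.3.3 (quasi-likelihood F test, TMM, 10 or more counts in 3 or more libraries, Benjamini-Hochberg adjusted p under 0.05 over all genes): 12 Inputs in 1 fit, 12 IP libraries in 1 fit, and 24 libraries for IP over Input. Levels in CPM used the fit of their own library type. Alternatives were DESeq2 1.42.0, RLE scaling, no filter, only 6 libraries, a replicate block and leaving out each library. On simulated counts for WT IR vs WT Ctrl (16090 genes), 100% of 200 genes changed 2-fold were recovered with 5 false calls. Members and lists were chosen with earlier results of these data known. Named genes were the 4 genes, up to 3 genes of lowest p per list, 2 neighbours per gene called in both genotype comparisons with the largest change, the 5 most correlated genes, copies, and Ythdf2 and Lyz2. Sequence windows came from GRCm38. The values of 1 gene of the substrain list are not reported here; it stays in the counts and medians of that list.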

Additional observations from a re-analysis of the deposited data

Results flagged for a closer look

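The irradiation effect of Wdfy1 in the Inputs differed between the genotypes by -0.348 on the log2 scale (cKO minus WT) and that of Ide by -0.246. This difference is made of the genotype differences that chose the genes, so it is a description, with no p-value. Wdfy1 differed between cKO and WT by -1.91 in Ctrl IP and by 2.08 in IR IP by label. All 3 libraries of one group lay beyond all 3 of the other in both cases, in opposite directions, and the difference between these was not tested.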

How the results depend on the processing

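The genotype difference of Wdfy1 kept its direction in every alternative run, from -2.25 to -2.12 in Ctrl Inputs, -2.62 to -2.47 in IR Inputs, -1.95 to -1.83 in Ctrl IP and 2.05 to 2.13 in IR IP by label. Counts of called genes were less stable. Of the 4 genes, 2 were called for irradiation in cKO, but 1 (Ide) in a fit of only the 6 libraries and 1 to 2 when a library was left out. For the interaction, a description here, the number past the threshold was 2, and 1 to 2 when a library was left out. In cKO IR by label, 2 were higher in IP, but 1 (Wdfy1) without the count filter and 1 to 2 with a library left out. With both irradiated genotypes averaged, an alternative added after the data were seen, 0 were higher, and the IP over Input of Wdfy1 turned from 1.59 to -0.746. The neighbours called in Ctrl Inputs numbered 11, but 6 to 9 with a library left out, 12 with DESeq2 and 15 in a fit of only the 6 libraries. The cause of these changes was not tested. Replicate numbers did not pair the libraries: same-numbered Inputs correlated at -0.336 to 0.24 in their deviations from the group means, above 0.1 in 2 of 18 pairs, and 3 of 12 libraries were closest to one of their own number. With the replicate block, the irradiation effect on Wdfy1 in cKO was -0.252 (edgeR adjusted p = 0.043), and no call of the 4 genes changed. Nnt and Entpd4 had no more than 28 counts in any library, which limits what can be read from them.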
